A study of Mus musculus with 6 samples.

Results

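The genes described here are those of mouse chromosome 16 that correspond to the segment lost in human 22q11.2 deletion syndrome, with Tbx1 itself left out. They are a list of names taken from the region, chosen with earlier results of these data known. The rule uses no measured value to admit a gene, but it picks the probe set by mean level. Of 34 such genes, 33 had a probe set that the platform annotation gives to a single gene symbol, out of 19938 genes measured in that way, and where a gene had several, the one brightest on average over the 6 arrays stood for it. The remaining gene, Gp1bb, shares its probe set with Septin5 and is described apart.

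In people, the deletion removes a block of neighbouring genes from 1 copy of the chromosome, and heart outflow tract, palate, thymus, parathyroid and facial development are affected. TBX1 encodes a T-box transcription factor active in the pharyngeal arches and is the gene of this block most closely tied to those malformations, while others, among them CRKL, HIRA and DGCR8, have been studied as further contributors. In the mouse the same genes lie together in a rearranged order. The comparison gives the level of each neighbour in the arch that lacks Tbx1.

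RNA came from mandibular arches, the part of the first pharyngeal arch that forms the lower jaw, of C57BL/6 mouse embryos at embryonic day 9.5 (E9.5). One group was Tbx1+/+ (wild type, 3 arrays) and the other Tbx1-/- (Tbx1 null, 3 arrays), and no further allele or agent is labelled in either. Arches of 3 embryos were pooled by genotype to obtain enough RNA, but no label says that every array had a pool of its own. The p-values therefore reflect array-to-array spread alone, which may be technical. The labels do not describe how the null allele was made. The values are log2 expression levels made by RMA, which corrects background, draws the arrays' distributions together and summarises the probes of a probe set. The level of a probe set depends on its probes as well as on the transcript, so levels are compared between genotypes and not between genes.

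Tbx1 checked the labels. Its log2 level was 11.64, 11.36 and 11.31 on the wild-type arrays and 9.48, 9.39 and 9.63 on the Tbx1 null arrays, a change of -1.94 (95% confidence interval -2.16 to -1.71, limma adjusted p = 0.000684). Markers of arch mesenchyme were present on every array, with a summed level (log2) of 14.81 to 14.92 in wild type and 14.99 to 15.04 in Tbx1 null over 8 genes. Of these 4 lay higher in Tbx1 null at an unadjusted limma p under 0.05 and without overlap, and 0 passed the adjusted threshold. The 4 were Prrx1 (0.19), Prrx2 (0.23), Msx1 (0.44) and Hand2 (0.56). That is 50% by either measure, against 9.44% of all genes by p and 15.4% without overlap. The rest were Pdgfra (0.04), Dlx2 (0.01), Twist1 (-0.05) and Dlx1 (-0.13). Markers of primitive erythroid cells lay lower in Tbx1 null, with 7 of 7 at an unadjusted limma p under 0.05, 0 past the adjusted threshold and a summed level of 11.72 to 11.83 against 11.37 to 11.48. Of 7 epithelial markers 2, Krt8 and Krt18, lay higher at an unadjusted p under 0.05, and the summed level was 14.43 to 14.62 against 14.59 to 14.74. The part of such differences in cell makeup in the values below was not tested. Array medians ran from 7.98 to 8.04.

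The 33 region genes were measured at nearly the same level with and without Tbx1. The probe set shared by Septin5 and Gp1bb, described apart, had a larger change of 0.25. None of the 33 passed a limma adjusted p of 0.05, which 0.16% of all genes tested did. At an unadjusted limma p under 0.05 there were 2, Prodh and Gsc2, both lower in Tbx1 null. That is 6.06% of the region's genes against 9.44% of all genes (5.50% higher and 3.94% lower), so the share was no higher than the background. The arrays of the genotypes did not overlap for 5 genes (3 higher and 2 lower in Tbx1 null), or 15.2%, against 15.4% of all genes (8.36% higher and 7.06% lower), which is again the background share.

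The size of the changes was small as well as their number. The median log2 change of the 33 genes was 0.016, against -0.0061 over all genes tested, with 20 above 0 and 13 below. With each array centred on its median the median of the 33 was -0.0106 and that of all genes -0.033, so its sign depends on the scaling. The median size of a change, regardless of sign, was 0.0319 for the region's genes and 0.0497 for all genes. In 20 genes the change was under 0.05 in size, and in 5 it was over 0.1. The lowest bound of any 95% confidence interval was -0.27 (Gsc2) and the highest 0.27 (Slc7a4), which correspond to 1.2-fold lower and 1.21-fold higher. All 33 intervals lay within a 1.25-fold change in either direction (0.32 on the log2 scale), a bound chosen after the values were seen, as did 89.3% of the intervals of all genes tested. These are intervals of single genes and do not cover all genes jointly. Outside the 33, the interval of the probe set shared by Septin5 and Gp1bb (0.13 to 0.36) passed the 1.25-fold bound. RMA tends to understate changes of dim probe sets, and 1 region gene, Serpind1, lay below the first quartile of mean level of all genes (6.81), and 7 lay below the median (8.55). In RNA from whole tissue, fewer cells of a type and less RNA per cell cannot be told apart.

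**Figure D1:**
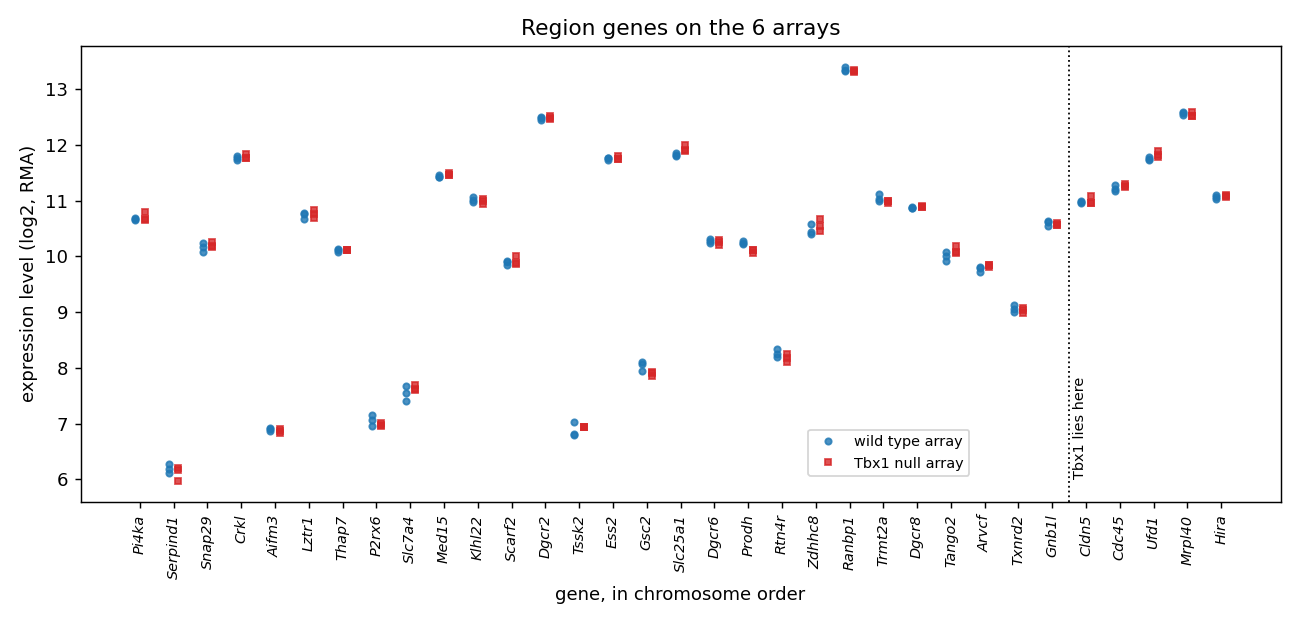
Log2 expression level (RMA) of the 33 region genes on each array, in chromosome order, with 3 wild-type arrays (blue circles) and 3 Tbx1 null arrays (red squares) per gene and a dotted line where Tbx1 lies. The symbols of the genotypes fall on or beside each other for every gene, with wild-type means between 6.19 (Serpind1) and 13.36 (Ranbp1).

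The promoter windows of the genes were examined for shared features, since several of the genes start back to back. Of the 33 measured genes, 32 had a window in the RefSeq promoter table of GRCm38.p6, which runs from 250 bases before to 50 bases after a gene's start. The other gene was Slc7a4. Where a gene has several starts it was counted once, by its richest window. The median GC content was 64.5% for the region's genes (38.7% to 78.0%) and 53.3% for 27025 genes with a window, and the median number of CG dinucleotides was 24.5 against 8. The letters GGGCGG, on either strand, stood in 25 of 32 windows (78.1%, against 38.2% of all genes), CCAAT in 15 (46.9% against 41.1%) and TATAAA in 5 (15.6% against 15.7%). The letters AGGTGTGA, a half-site known to be bound by T-box factors, stood in 0 of 32, against 1.48% of all genes on the same count. A run of letters is not evidence of binding, and its absence describes this window only. The values for all genes come from every gene with a window, not limited to measured or protein-coding genes. The contrasts in composition and letters therefore cannot be read as a trait of the region.

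A set of 5 head-to-head pairs, with starts on opposite strands less than 400 bases apart, held 10 of the genes. These pairs were Ranbp1 with Trmt2a, Tango2 with Arvcf, Mrpl40 with Hira, Cdc45 with Ufd1 and Pi4ka with Snap29. A stretch between the genes is shown for 3 pairs. In these, the part outside both annotated genes was long enough and lay within the promoter window of the right-hand gene. The stretches are shown because one short sequence there precedes both transcripts whose changes are set side by side. They are written on the + strand of GRCm38.p6, 5′ to 3′, from chr16:18248695-18248846 (Ranbp1 to the left, Trmt2a to the right), chr16:18348099-18348181 (Tango2 and Arvcf) and chr16:18876638-18876749 (Mrpl40 and Hira). Capitals mark CCAAT and GGGCGG, or their reverse complements ATTGG and CCGCCC.
Ranbp1-Trmt2a: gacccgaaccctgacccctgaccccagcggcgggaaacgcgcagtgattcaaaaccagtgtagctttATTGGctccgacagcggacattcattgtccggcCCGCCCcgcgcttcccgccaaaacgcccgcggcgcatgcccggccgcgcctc
Tango2-Arvcf: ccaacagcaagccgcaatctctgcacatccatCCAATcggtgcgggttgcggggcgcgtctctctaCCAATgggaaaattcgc
Mrpl40-Hira: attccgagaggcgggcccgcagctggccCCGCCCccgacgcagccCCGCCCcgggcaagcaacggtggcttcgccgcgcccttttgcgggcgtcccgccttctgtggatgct
The Ranbp1-Trmt2a stretch is 152 bases long and holds both kinds of letters, the Tango2-Arvcf stretch of 83 bases holds CCAAT at 2 places, and the Mrpl40-Hira stretch of 112 bases holds CCGCCC at 2 places. The log2 changes of the partners were -0.04 and -0.06 (Ranbp1, Trmt2a), 0.11 and 0.06 (Tango2, Arvcf), -0.02 and 0.03 (Mrpl40, Hira), 0.04 and 0.08 (Cdc45, Ufd1), and 0.03 and 0.04 (Pi4ka, Snap29). Partners differed by at most 0.05, and none of the 10 genes passed the adjusted threshold.

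Among genes that act in the nucleus and on RNA, 9 of 9 were measured, 0 passed the adjusted threshold, and the changes ran from -0.14 to 0.04. Dgcr8, the RNA-binding partner of Drosha in microRNA processing, was one of the most tightly measured: 10.87, 10.87 and 10.89 in wild type and 10.89, 10.89 and 10.90 in Tbx1 null. The values lay almost on one another, and the change was 0.02 (interval -0.08 to 0.11). Hira, the chaperone that deposits histone H3.3, had a wild-type level of 11.06 ± 0.04 (SD, n = 3) and a change of 0.03 (interval -0.07 to 0.13). Cdc45, a component of the helicase that opens DNA at replication forks, had a level of 11.22 ± 0.06 and a change of 0.04 (interval -0.07 to 0.15). Ranbp1, a regulator of the Ran GTPase, was at 13.36 ± 0.04 with a change of -0.04 (interval -0.14 to 0.06).

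Trmt2a, a tRNA methyltransferase, was at 11.04 ± 0.06 with a change of -0.06 (interval -0.17 to 0.05). Ess2, a nuclear protein linked to splicing, was at 11.75 ± 0.02 with a change of 0.02 (interval -0.08 to 0.11). Med15, a subunit of the Mediator complex that links transcription factors to RNA polymerase II, was at 11.44 ± 0.01 with a change of 0.03 (interval -0.06 to 0.12). Thap7, a zinc-finger repressor, was at 10.10 ± 0.03 with a change of 0.01 (interval -0.09 to 0.10).

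Gsc2, a homeobox gene related to goosecoid, had the second largest change of the region's genes. Its levels were 8.11, 8.06 and 7.95 in wild type and 7.86, 7.92 and 7.90 in Tbx1 null. The highest Tbx1 null array lay just under the lowest wild-type array, so the genotypes did not overlap. The change was -0.14 (SE 0.05, interval -0.27 to -0.02), 1.11-fold, with a limma adjusted p of 0.437 over all genes. The probe set is dim, below the median of all genes, and was not set against background. A stretch of 150 bases of its promoter window, outside the annotated gene, is shown because it is one of the 2 genes at an unadjusted p under 0.05, from chr16:17915028-17915177 of GRCm38.p6, on the - strand, 5′ to 3′, with no searched letters to mark. The rest of the window holds GGGCGG and TATAAA.
Gsc2: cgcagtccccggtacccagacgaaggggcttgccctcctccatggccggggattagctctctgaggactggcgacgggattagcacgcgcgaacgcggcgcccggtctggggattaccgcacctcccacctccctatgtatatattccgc

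Among genes of mitochondria and metabolism, 6 of 6 were measured, 0 passed, and the changes ran from -0.16 to 0.11. Prodh, the mitochondrial enzyme that begins proline breakdown, had the largest change of all region genes. Its levels were 10.22, 10.24 and 10.27 in wild type and 10.11, 10.05 and 10.11 in Tbx1 null. All Tbx1 null arrays lay below all wild-type arrays, and each genotype was tight. The change was -0.16 (SE 0.04, interval -0.26 to -0.06), 1.11-fold, with a limma adjusted p of 0.297. With any 1 array left out, the change lay between -0.167 and -0.135. In chromosome order Prodh lies 13 protein-coding genes from Tbx1, and Dgcr6, beside it, had a level of 10.27 ± 0.04 and a change of -0.02 (interval -0.13 to 0.09). A stretch of 150 bases from the promoter window of Prodh, outside the annotated gene, is shown for the same reason, from chr16:18089284-18089433, - strand, 5′ to 3′, again with no searched letters in it or in the rest of the window.
Prodh: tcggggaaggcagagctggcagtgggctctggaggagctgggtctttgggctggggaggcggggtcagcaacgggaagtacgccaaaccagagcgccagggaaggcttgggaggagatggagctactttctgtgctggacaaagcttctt

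Slc25a1, the mitochondrial citrate carrier, had levels of 11.82, 11.80 and 11.86 in wild type and 11.89, 11.90 and 11.996 in Tbx1 null. The genotypes did not overlap, with Tbx1 null replicate 3 the highest of the 6. The change was 0.10 (interval -0.01 to 0.21, limma adjusted p = 0.566). Tango2, a gene whose loss causes metabolic crises in people, had levels of 9.92, 10.01 and 10.07 in wild type and 10.05, 10.07 and 10.19 in Tbx1 null. Its genotypes overlapped, and the change was 0.11 (interval -0.03 to 0.24, limma adjusted p = 0.645). The microRNA gene Mir185, which lies inside Tango2, had a probe set of its own with a level of 8.47 ± 0.06 in wild type and 8.42 ± 0.14 in Tbx1 null. Its change of -0.04 (interval -0.22 to 0.13) had the other sign from that of Tango2, and both intervals include 0. The only mature arm that the RefSeq table held is given, with the seed of that arm, bases 2 to 8, in capitals.
mmu-miR-185-3p: aGGGGCUGgcuuuccucuggu
Mrpl40, a protein of the large mitochondrial ribosomal subunit, was at 12.56 ± 0.03 with a change of -0.02 (interval -0.13 to 0.08). Txnrd2, the thioredoxin reductase of mitochondria, was at 9.06 ± 0.06 with a change of -0.03 (interval -0.14 to 0.08). Aifm3, a relative of apoptosis-inducing factor, was dim, at 6.90 ± 0.03 with a change of -0.02 (interval -0.13 to 0.08).

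**Figure D2:**
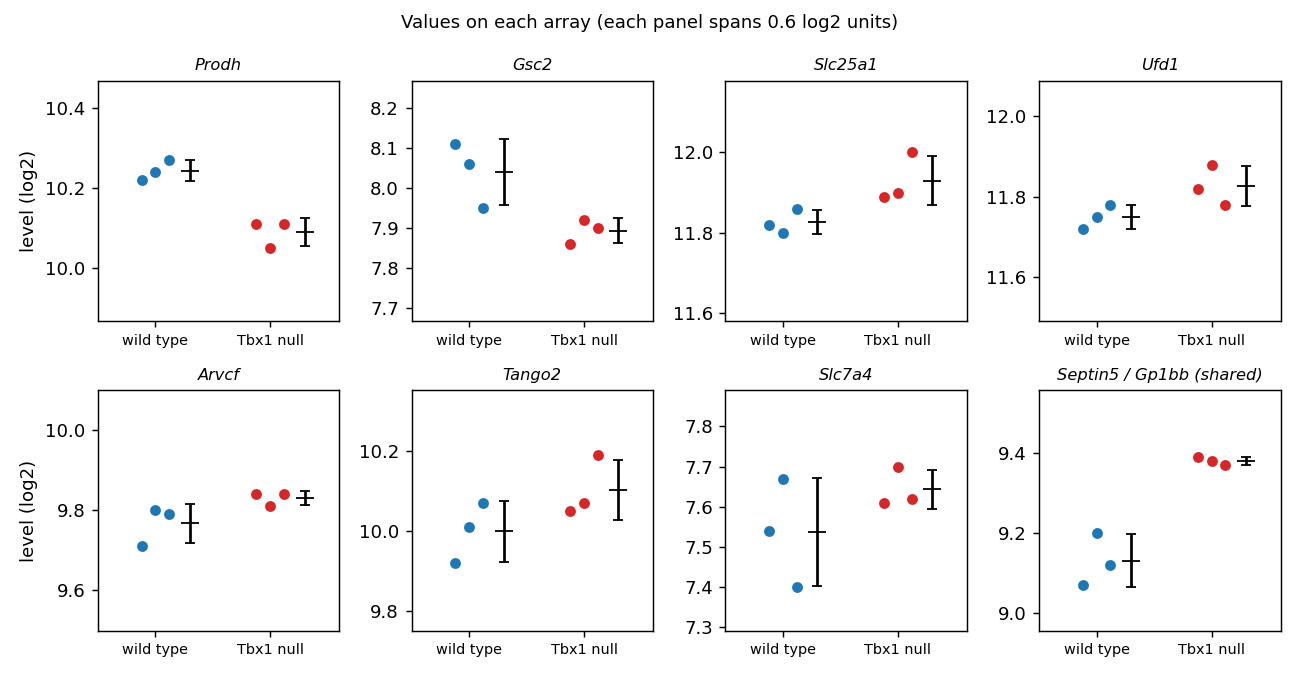
Log2 level on each array for the 7 region genes with no overlap between the genotypes or with the largest changes, and for the probe set shared by Septin5 and Gp1bb, as points, with the mean and SD (n = 3) of each genotype beside them. Each panel spans the same 0.6 log2 units, and the shared probe set shows the widest step, from 9.13 to 9.38.

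Among genes of signalling, protein degradation and trafficking, 9 of 9 were measured, 0 passed, and the changes ran from -0.03 to 0.08. Crkl, an adaptor that carries signals from FGF and other receptor tyrosine kinases, had levels of 11.77, 11.72 and 11.80 in wild type and 11.76, 11.76 and 11.83 in Tbx1 null. The genotypes were interleaved, with a change of 0.02 (interval -0.09 to 0.13). Ufd1, which with Nploc4 guides ubiquitinated proteins to the p97 segregase, had levels of 11.72, 11.75 and 11.78 in wild type and 11.82, 11.88 and 11.78 in Tbx1 null. The genotypes did not overlap, but only narrowly, with the highest wild-type array at 11.776 and the lowest Tbx1 null array at 11.783. The change was 0.08 (interval -0.03 to 0.18, limma adjusted p = 0.656). Lztr1, a substrate receptor of the Cul3 ubiquitin ligase that acts on Ras-family proteins, was at 10.73 ± 0.05 with a change of 0.02 (interval -0.11 to 0.15). Klhl22, another Cul3 receptor, was at 11.02 ± 0.04 with a change of -0.03 (interval -0.14 to 0.08).

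Pi4ka, the kinase that makes phosphatidylinositol 4-phosphate at the plasma membrane, was at 10.67 ± 0.02 with a change of 0.03. Snap29, a SNARE protein of membrane fusion, was at 10.16 ± 0.08 with a change of 0.04. Their intervals were -0.09 to 0.15 and -0.08 to 0.17. Zdhhc8, a palmitoyltransferase, was more variable, at 10.40, 10.44 and 10.57 in wild type and 10.54, 10.46 and 10.66 in Tbx1 null. The genotypes overlapped over most of their range, and the change was 0.08 (interval -0.07 to 0.24). Tssk2, a kinase known from the testis, was dim in the arch, at 6.88 ± 0.13, with a change of 0.07 (interval -0.09 to 0.22). Its neighbour and paralog Tssk1 was at 7.32 ± 0.03 with a change of -0.11 (interval -0.23 to 0.01), without overlap.

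Gnb1l, a WD-repeat protein, is the protein-coding gene next to Tbx1 on one side and had 2 probe sets. The brighter was at 10.60 ± 0.05 in wild type with a change of -0.03 (interval -0.14 to 0.07). The other was at 9.18 ± 0.01 with a change of 0.01 (interval -0.10 to 0.12) in the fit to every probe set. The 2 probe sets disagreed in sign, and both intervals include 0.

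Among genes of the cell surface and secreted proteins, 8 of 9 were measured, 0 passed, and the changes ran from -0.08 to 0.11. Cldn5, the tight-junction claudin of endothelial cells, had levels of 10.99, 10.96 and 10.98 in wild type and 10.95, 10.95 and 11.08 in Tbx1 null. The arrays overlapped, with 1 Tbx1 null array above the rest, and the change was 0.02 (interval -0.10 to 0.13). Of 12 endothelial markers 0 passed the adjusted threshold by limma. Only Sox17 (-0.18) had an unadjusted p under 0.05 (8.33%, against 9.44% of all genes). Only Esam (-0.12) did not overlap (8.33%, against 15.4% of all genes). The changes of 10 markers lay below 0, with Tek lowest at -0.20, and those of 2 above, with a median of -0.04. The summed level (log2) of the markers was 14.19 to 14.22 in wild type and 14.06 to 14.24 in Tbx1 null. The part of endothelial cell number in the Cldn5 value was not tested. Arvcf, a catenin that binds cadherins, had levels of 9.71, 9.80 and 9.79 in wild type and 9.84, 9.81 and 9.84 in Tbx1 null. The genotypes did not overlap by a narrow margin (9.798 against 9.811), and the change was 0.06 (interval -0.04 to 0.16, limma adjusted p = 0.738).

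Dgcr2, an adhesion receptor-like membrane protein, was at 12.47 ± 0.04 with a change of 0.02 (interval -0.08 to 0.12). Scarf2, a scavenger receptor, was at 9.88 ± 0.03 with a change of 0.03 (interval -0.09 to 0.15). Rtn4r, the Nogo receptor of neurons, was at 8.26 ± 0.07 with a change of -0.08 (interval -0.21 to 0.05). P2rx6, an ATP-gated channel subunit, was at 7.06 ± 0.09 with a change of -0.08 (interval -0.21 to 0.05).

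Slc7a4, a member of the cationic amino acid transporter family, had the largest change above 0 but also a wide spread, at 7.54, 7.67 and 7.40 in wild type and 7.61, 7.70 and 7.62 in Tbx1 null. The genotypes overlapped, and the change was 0.11 (interval -0.06 to 0.27, limma adjusted p = 0.712). Serpind1, the liver-derived thrombin inhibitor heparin cofactor II, was the dimmest region gene, at 6.19 ± 0.08 with a change of -0.08 (interval -0.25 to 0.09). The hepatic markers had 0 of 6 genes at an unadjusted p under 0.05 and a summed level (log2) of 9.38 to 9.52 in wild type and 9.41 to 9.46 in Tbx1 null.

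The probe set that the annotation gives to both Septin5, a septin of nerve terminals, and Gp1bb, a subunit of the platelet receptor for von Willebrand factor, differed more between the genotypes than any of the 33 genes. Its levels were 9.07, 9.20 and 9.12 in wild type and 9.39, 9.38 and 9.37 in Tbx1 null. The lowest Tbx1 null array lay above the highest wild-type array, and the 3 Tbx1 null arrays were nearly alike. The change was 0.25 (SE 0.05, interval 0.13 to 0.36), 1.19-fold. In the fit to every probe set its limma p was 0.00165 unadjusted and 0.211 adjusted, so it did not pass. That fit adjusts over 35556 probe sets and called 4 of the 19938 genes, against 32 in the fit used for the 33 genes. The smallest unadjusted limma p of the 33 was 0.00741 (Prodh). The signal cannot be assigned to either gene. These 2 genes are the protein-coding neighbours of Tbx1 on the side opposite to Gnb1l. Markers of the platelet lineage had changes below 0 in 5 of 5 measured genes (median -0.14, against -0.0061 over all genes). None passed the adjusted threshold by limma. Only Itga2b (-0.14) had an unadjusted p under 0.05 and no overlap (20% by either measure, against 9.44% and 15.4% of all genes). The largest changes had wide intervals, Ppbp with -0.35 (-1.0 to 0.29) and Pf4 with -0.30 (-0.85 to 0.25). The summed level (log2) of the platelet markers was 9.99 to 10.31 in wild type and 9.81 to 10.10 in Tbx1 null. Neural markers had a summed level of 11.25 to 11.35 and 11.16 to 11.38. Of 8 neural markers, Dcx (0.16) lay higher and Pax6 (-0.22) and Nefl (-0.30) lower at an unadjusted limma p under 0.05. That is 37.5%, against 9.44% of all genes, and 0 passed the adjusted threshold. The genotypes did not overlap for 1 higher and 3 lower (50%, against 15.4% of all genes). The part of either cell type in this signal was not tested.

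**Figure D3:**
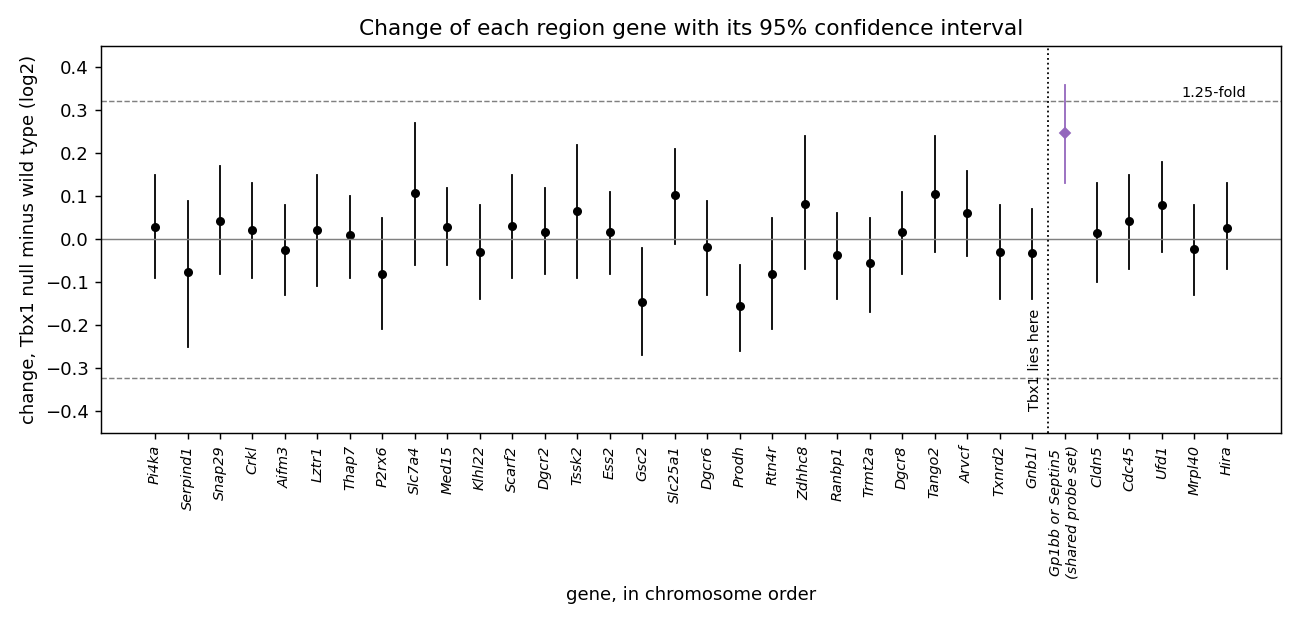
Change in log2 level (Tbx1 null minus wild type) of each region gene with its 95% confidence interval, in chromosome order, with a dotted line where Tbx1 lies and dashed lines at a 1.25-fold change. The 33 genes (black) stay inside the dashed lines on both sides of Tbx1, and the probe set shared by Gp1bb and Septin5 (purple diamond) lies highest at 0.25.

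Changes were also read by distance from Tbx1 in gene order, with no test of a difference. Of the 33 genes, the 10 nearest to it in gene order were Gnb1l, Txnrd2, Arvcf, Tango2, Dgcr8 and Trmt2a on one side. On the other side they were Cldn5, Cdc45, Ufd1 and Mrpl40. Other measured genes of the interval were not ranked. These 10 had changes from -0.06 to 0.11 with a median size of 0.0369. The probe set of Septin5 and Gp1bb, the closest genes on one side, is not among them, and its change of 0.25 was larger than any of theirs. The 23 farther genes had changes from -0.16 to 0.11 with a median size of 0.0312. The 28 genes before Tbx1 in chromosome order had a median change of 0.02 and the 5 after it of 0.03.

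Other genes of the interval and its surroundings also had small changes. A list of neighbours, which also takes in genes beyond the segment, held 12 measured genes, of which 0 passed the adjusted threshold by limma, and 1 stood at an unadjusted p under 0.05 (8.33%, against 9.44% of all genes). That gene was Ydjc, a carbohydrate deacetylase-like gene, at 8.98 ± 0.07 in wild type and 8.81 ± 0.03 in Tbx1 null (change -0.17, limma adjusted p = 0.335). The genotypes did not overlap for 3 of the 12 (25%, against 15.4% of all genes), namely Ydjc, Sdf2l1, a chaperone cofactor of the endoplasmic reticulum (-0.09), and Top3b, a topoisomerase (0.08). A set of 10 non-member genes between Pi4ka and Hira had a probe set of their own. It was collected after the values were seen and shares Lrrc74b and Car15 with the neighbours. Its changes ran from -0.11 to 0.09, with 0 past the adjusted threshold by limma and 0 at an unadjusted p under 0.05. The genotypes did not overlap for 1 higher (4933432I09Rik) and 1 lower (Tssk1), or 20%, against 15.4% of all genes.

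Proteins encoded in the region work with partners encoded elsewhere, and these were read from 12 lists of known partners. Of 76 measured partner genes 0 passed the adjusted threshold by limma, 4 had an unadjusted p under 0.05 (3 higher, 1 lower; 5.26%, against 9.44% of all genes), and the median change was -0.01. The genotypes did not overlap for 6 higher and 4 lower, or 13.2% of the partners, against 15.4% of all genes. Drosha, the enzyme that Dgcr8 assists, had a change of -0.01, and Dicer1 and Ddx17, which had no overlap, had 0.05 and 0.03. The 6 partners of Ranbp1 in the Ran cycle had changes from -0.091 (Rcc1, the exchange factor of Ran, without overlap) to -0.001 (Ranbp2), and 0 had an unadjusted limma p under 0.05. Of 10 replicative helicase genes beside Cdc45, 8 lay below 0, and Mcm3 and Mcm7 had changes of -0.09 and -0.06 without overlap. Dividing-cell markers had a summed level (log2) of 15.66 to 15.70 in wild type and 15.65 to 15.66 in Tbx1 null. The part of cell division in these values was not tested.

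Partners at an unadjusted p under 0.05 came from 4 lists. Ubn2, a subunit of the Hira complex, had a change of 0.15, and Cabin1 of the same complex, which also did not overlap, 0.06. Med12, a Mediator subunit of the kinase module, had a change of 0.12, and Efr3b, a membrane anchor of Pi4ka, 0.18. Prdx3, the mitochondrial peroxiredoxin that uses the thioredoxin system of Txnrd2, had a change of -0.18, with overlapping arrays. Mrpl12, of the mitochondrial ribosome, had a change of -0.14 without overlap. The limma adjusted p of these genes was 0.304 or higher. The partners of Crkl, Ufd1, Snap29 and of Lztr1 with Klhl22 gave 0 genes at an unadjusted limma p under 0.05 and 0 without overlap, with Crk, the paralog of Crkl, at -0.03.

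**Figure D4:**
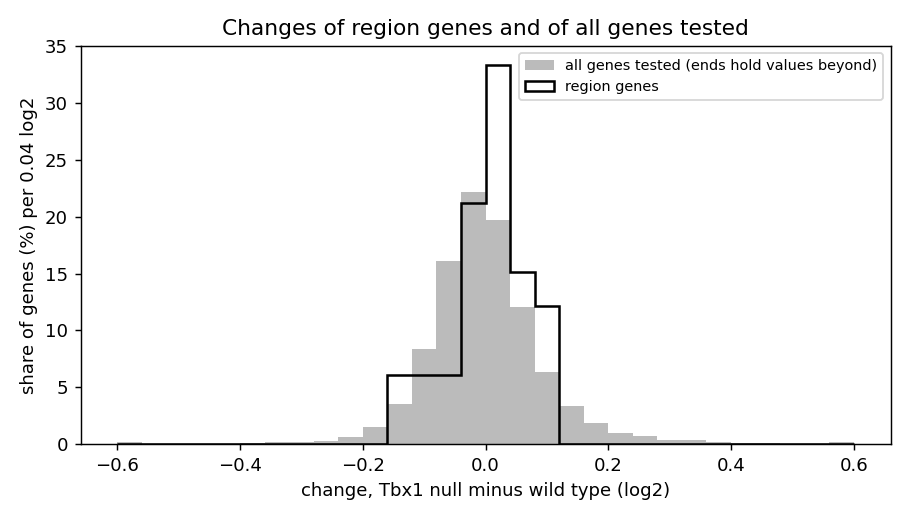
Share of genes (%) by change in log2 level (Tbx1 null minus wild type, steps of 0.04) for the 33 region genes (black line) and for all 19938 genes tested (grey bars, with values beyond the axis in the end bars). The region genes lie between -0.16 and 0.11, in the central part of the distribution of all genes.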

How the data were processed

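Affymetrix Mouse Gene ST 1.0 arrays measured RNA of 6 samples, with 3 arrays per genotype. The authors deposited log2 values of RMA summaries. Affymetrix Expression Console 1.1 was the program, according to the submitters' processing notes. For summary level, filters and genome build: not given in the sources used here. Of 35556 probe sets, 21789 had 1 gene symbol. For each gene the probe set with the highest mean was kept, which left 19938 genes. The table held 0 columns of other samples, and no array copied another.

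The test was limma 3.58.1 (R 4.3.3; lmFit, then eBayes; two-sided; no covariate), adjusted by Benjamini-Hochberg over all genes, with a threshold of 0.05. Changes are Tbx1 null minus wild type on the log2 scale, and intervals are at 95%. Simulated data tested the fit, with variances drawn from its fitted prior. Of 50 genes changed by each fold, it recovered 26 at 1.25-fold, 46 at 1.5-fold and 50 at 2-fold and at 4-fold. Of 181 calls 9 were false. A change of 1.25-fold or less could therefore go uncalled. There is no read depth for arrays; their number limits the precision (median SE of a region gene 0.0471, of all genes 0.0579). Gene order came from the RefSeq table of GRCm38.p6, used for neighbours only.

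The members and lists were chosen with earlier results of these data known. Every member was named. Array values were given for members at an unadjusted p under 0.05, without overlap, or with the 2 largest changes in a direction, and for Dgcr8, Crkl, Zdhhc8 and Cldn5, added after the values were seen. Of neighbours and partners, up to 3 per list at an unadjusted p under 0.05 or without overlap were named; Drosha, Crk, Tssk1, Mir185 and the probe set of Septin5 and Gp1bb were added after the values were seen.

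Replicate numbers were not taken as pairs. Alternatives were a replicate block, leaving out each array, quantile normalisation again, median centring, 2 filters on low levels, a variance trend with robust estimation, weights per array, averaging the probe sets of a gene, and every probe set in the fit.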

Additional observations from a re-analysis of the deposited data

Results flagged for a closer look

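The probe set shared by Septin5 and Gp1bb lies outside the 33 genes measured by a probe set of their own, and it stood higher on all 3 Tbx1 null arrays than on any wild-type array. Its log2 change was 0.25 (interval 0.13 to 0.36), larger in size than that of any region gene, with a limma adjusted p of 0.211 in the fit to every probe set.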

How the results depend on the processing

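Under all 15 alternatives fixed for these fits, 0 region genes, 0 neighbours and 0 partners passed the adjusted threshold; the smallest adjusted p of a region gene was 0.0727, for Prodh with array weights. The count of 2 at an unadjusted p under 0.05 was also 2 with the replicate block. That block cut the calls over all genes from 32 to 6. Same-numbered arrays correlated at -0.045, 0.26 and 0.149 in their deviations from the genotype means. Differently numbered arrays correlated at -0.366 to 0.25. With 3 arrays per genotype, these values cannot decide whether the numbers pair the arrays. The count was 6 with array weights (18.2%, against 19.2% of all genes). It was 1 to 3 with 1 array left out (1 each when wild type replicate 1, Tbx1 null replicate 1 and Tbx1 null replicate 3 were dropped). Calls over all genes ran from 3 to 334 over the alternatives. The count of 5 without overlap was 6 to 12 with 1 array left out (9 without wild type replicate 2, 12 without wild type replicate 3, 8 without Tbx1 null replicate 1 or 2), where fewer arrays make separation easier (at most 36.4% of region genes and 32.7% of all genes, both without wild type replicate 3). Counting the probe set of Septin5 and Gp1bb, chosen after seeing the data, gives 3 at an unadjusted p under 0.05. The median change was 0.00358 to 0.0227 with 1 array left out and -0.0106, of the other sign, with arrays centred on the median. Signs of the smallest changes, none called and none above 0.07 in size, turned in 25 of 488 values, and the cause was not tested. Quantile normalisation gave -0.014 for Thap7. Centring on the median, which moved the median of all genes to -0.033, gave -0.010 for Dgcr2, -0.011 for Dgcr8, Ess2 and Cldn5, -0.000178 for Hira, -0.00591 for Crkl, -0.00491 for Lztr1 and -0.018 for Thap7. Array weights gave -0.030 for Tssk2, 0.0077 for Gnb1l, 0.00757 for Klhl22 and -0.014 for Lztr1, and the other probe set of Gnb1l, also chosen after seeing the data, gave 0.013. With 1 array left out, the range was -0.019 to 0.058 for Lztr1, -0.002 to 0.032 for Dgcr2, -0.039 to 0.00487 for Dgcr6, -0.00168 to 0.041 for Crkl, -0.00747 to 0.020 for Thap7, -0.00999 to 0.056 for Scarf2, -0.026 to 0.036 for Cldn5 and -0.013 to 0.054 for Pi4ka. Without background probes, signal over background is unknown and limits the 7 genes below the median level, Serpind1, Aifm3, Tssk2, P2rx6, Slc7a4, Gsc2 and Rtn4r.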
